A study of Solanum lycopersicum with 6 samples.

Results

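The miRNAs of normal young fruit pedicels were described in the 3 WT libraries out of the 6 small RNA libraries of the series. A library belonged to this set when its label gave WT pedicel at 10 days after anthesis (DAA). WT is taken here as the tomato (*Solanum lycopersicum*) cultivar 'Micro-Tom', a dwarf cultivar used as a laboratory model. The mutants of the study were isolated from a mutagenized population of this cultivar. Whether the WT plants were its unmutagenized parent is not given in the sources used here. Each sample bulked the distal segments of 5 pedicels, which lie between the abscission zone and the calyx, so that a sample is a pool of several organs and of all their tissues. In such bulk samples, fewer cells of a type and less RNA per cell cannot be told apart. The lists hold miRNAs only, so the labelled tissue could not be checked against marker genes. The *hws-1* libraries were not analysed here, and no comparison between lines was made.

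Plant miRNAs are cut from hairpin precursors by DICER-LIKE1. One strand of the resulting duplex is loaded into an ARGONAUTE protein, where it guides the cleavage or repression of complementary transcripts, while the other strand, the star strand, is usually degraded. Related loci that yield the same or nearly the same miRNA form a family, and many old families act on transcription factors that set organ polarity, growth and developmental phase. The pedicel carries water and sugars to the fruit through its vascular tissue, in which the HD-ZIP III transcription factors acted on by miR166 are known patterning genes.

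The values are TPM as the authors deposited them, that is, reads of a hairpin arm for each 1000000 reads, with no division by length. Which reads of a library form this total is not given in the sources used here. Between 257798 and 313526 reads stood behind this scale, and 1 read was worth 3.19, 3.88 and 3.57 TPM in WT replicates 1, 2 and 3. The listed miRNAs summed to 179117, 137097 and 159016 TPM, which is between 13.7% and 17.9% of these reads. WT replicate 1, the deepest library by this estimate, listed 88 loci, while WT replicates 2 and 3 listed 68 and 73. The study calls the pools biological replicates, and whether they shared plants is not given. The SD given below measures the spread between these 3 samples.

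A family was taken as the name before the first hyphen without its locus letter, and the TPM of all its rows, from both arms, were summed in each library. Reads that match several loci are divided among them by the pipeline, by a rule not given in the sources used here, so that a family sum is firmer than the value of a single locus. Locus letters are given within each list, and a letter may name different loci in different libraries. In all, 37 families were listed. Of these, 26 were listed in all 3 libraries, 7 in 2 libraries and 4 in 1 library. All 37 were listed in WT replicate 1, 28 in WT replicate 2 and 31 in WT replicate 3.

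A small number of families made up most of the listed miRNA. The first family, miR166, took 24.5% ± 1.8 (SD, n = 3) of the listed total, the first 3 families together 55.5% ± 1.5 (SD, n = 3) and the first 10 families 91.3% ± 0.86 (SD, n = 3). The first 3 families were needed to reach 50% of the total in each library, and 9 or 10 families to reach 90%. The effective number of families, the exponential of the Shannon entropy of the shares, was 10.5 ± 0.14 (SD, n = 3). This number differed little between libraries, although they listed 37, 28 and 31 families. Between 16 and 25 families of a library each stood below 1%, and together they took between 6.23% and 6.71% of its total.

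**Figure D1:**
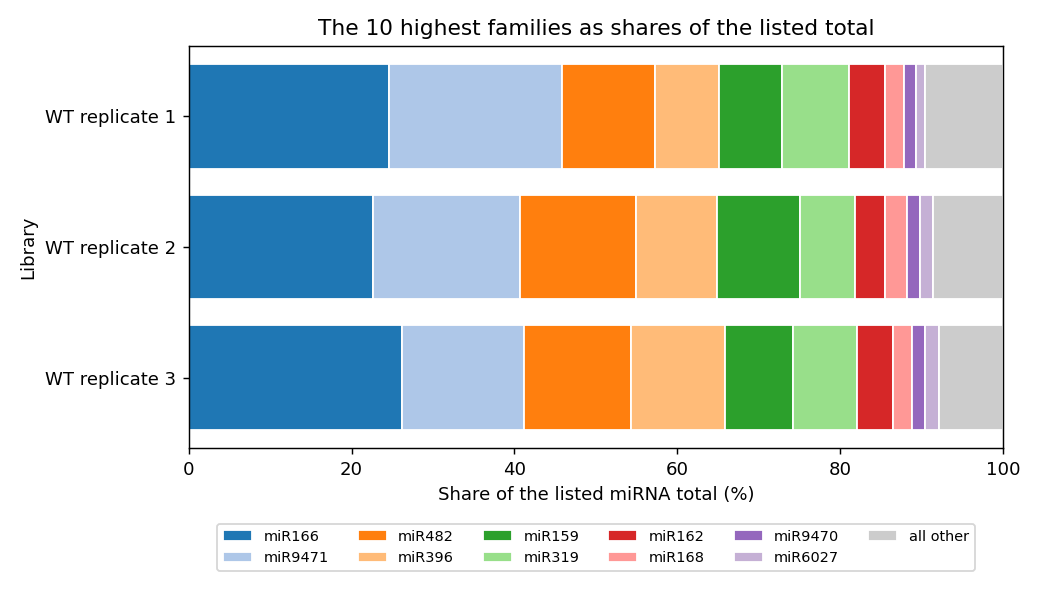
Shares of the listed miRNA total (%, x axis) for the 10 highest families in each of the 3 WT libraries (y axis), with all other families in grey. The first segment, miR166, spans 24.6%, 22.6% and 26.2%, and the grey remainder is under 10% in each library.

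The family miR166, which acts on HD-ZIP III transcription factors, ranked first in all 3 libraries. It summed to 44082, 31041 and 41714 TPM in WT replicates 1, 2 and 3, with a coefficient of variation (CV) of 17.8%. WT replicate 2 was the low library. The family was spread over 10 loci in each library, against 3 miR166 genes in the RefSeq annotation of assembly SLM_r2.1, which was used only for names and neighbours. One locus stood apart from the others. miR166b held 43.9%, 43.2% and 46.6% of the family, with 19349, 13404 and 19439 TPM. Its 5p arm, listed as the star strand, had 10814, 6938 and 11570 TPM, and its 3p arm, listed as mature, had 8535, 6466 and 7869 TPM. The star strand was therefore the higher one in 3 of 3 libraries. The 3p arms of the other 9 loci stood close together, between 2045 and 2406 TPM in WT replicate 1. They were between 1428 and 1664 TPM in WT replicate 2 and between 1608 and 1878 TPM in WT replicate 3. The 3p rows of miR166e and miR166i had the same value in each library, as did those of miR166g and miR166j. Since reads that match several loci are divided among them, these values need not be separate measurements. The first rank rested on the sum over arms and loci. With mature rows only, miR9471 came first with 21.5% and miR166 second with 18.1%. With the highest row of each family in place of its sum, miR9471 again came first and miR166 had 11.5%, below miR159, miR482 and miR319.

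The second family in each library was miR9471, with 38051, 24657 and 23692 TPM and a mean share of 18.0% ± 3.2 (SD, n = 3). This family is annotated in tomato, and no role is given for it here. It was carried by 2 loci, whose genes are direct neighbours in the RefSeq annotation with no gene between them. miR9471a-3p was the highest single row, at 23031, 13748 and 13193 TPM, and it was 1.56, 1.31 and 1.31 times miR9471b-3p. WT replicate 1 was the high library for both loci. The 3p arm took 98.7% ± 0.62 (SD, n = 3) of the family. The ranges of miR166 and miR9471 overlapped over libraries, although miR166 was the higher of the 2 within each library, by 1.16 to 1.76 times. On shares of the listed total, the lowest miR166 value, 22.6%, stood above the highest miR9471 value, 21.2%.

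The third family in each library was miR482, which acts on NLR disease resistance genes. It had 20342, 19676 and 20938 TPM, a CV of 3.11%, and its lowest library stood above the highest library of every lower family in TPM. On shares of the listed total it had 11.4%, 14.4% and 13.2%, a CV of 11.6%, and overlapped with miR396, whose highest share was 11.6%. A single locus carried most of it. miR482b held 58.8%, 64.1% and 68.0% of the family, and miR482b-3p had 11214, 11952 and 13646 TPM. The second locus was miR482a, whose 3p arm had 4709, 3978 and 3754 TPM. In TPM, miR482b-3p was highest in WT replicate 3 and miR482a-3p in WT replicate 1. Among the 5 miR482 loci, the lowest one in each library had 333, 356 and 249 TPM.

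The next 3 families, miR396, miR159 and miR319, exchanged places between libraries. miR396, which acts on GROWTH-REGULATING FACTOR genes, had 14041, 13513 and 18402 TPM. miR159, which acts on GAMYB-like transcription factors, had 13947, 13992 and 13317 TPM. miR319, which is related to miR159 in sequence and acts on TCP transcription factors, LANCEOLATE of tomato among them, had 14807, 9273 and 12390 TPM. Of the 3, miR319 was the highest in WT replicate 1, miR159 in WT replicate 2 and miR396 in WT replicate 3. The 3 ranges overlapped, so that these families had no fixed order.

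These 3 families were built differently. miR159 came from 1 locus and mostly from 1 arm, since miR159-3p had 13759, 13673 and 12942 TPM and miR159-5p 188, 319 and 375 TPM. miR319 had 5, 5 and 4 loci, but miR319a-3p alone had 13905, 8556 and 11756 TPM, and its locus held 93.7% ± 1.3 (SD, n = 3) of the family. The star strand of miR319a was listed at 0 in all 3 libraries, and the locus is listed as Probable, the evidence class below Known. In miR396, no locus held more than 37.9% of the family in any library, and both arms were high. The 3p rows of miR396a and miR396d had the same value as each other in each library, at 2525, 2669 and 4652 TPM. WT replicate 3 was thus the high library for these rows, and it lists them as mature, whereas the other libraries list them as star.

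**Figure D2:**
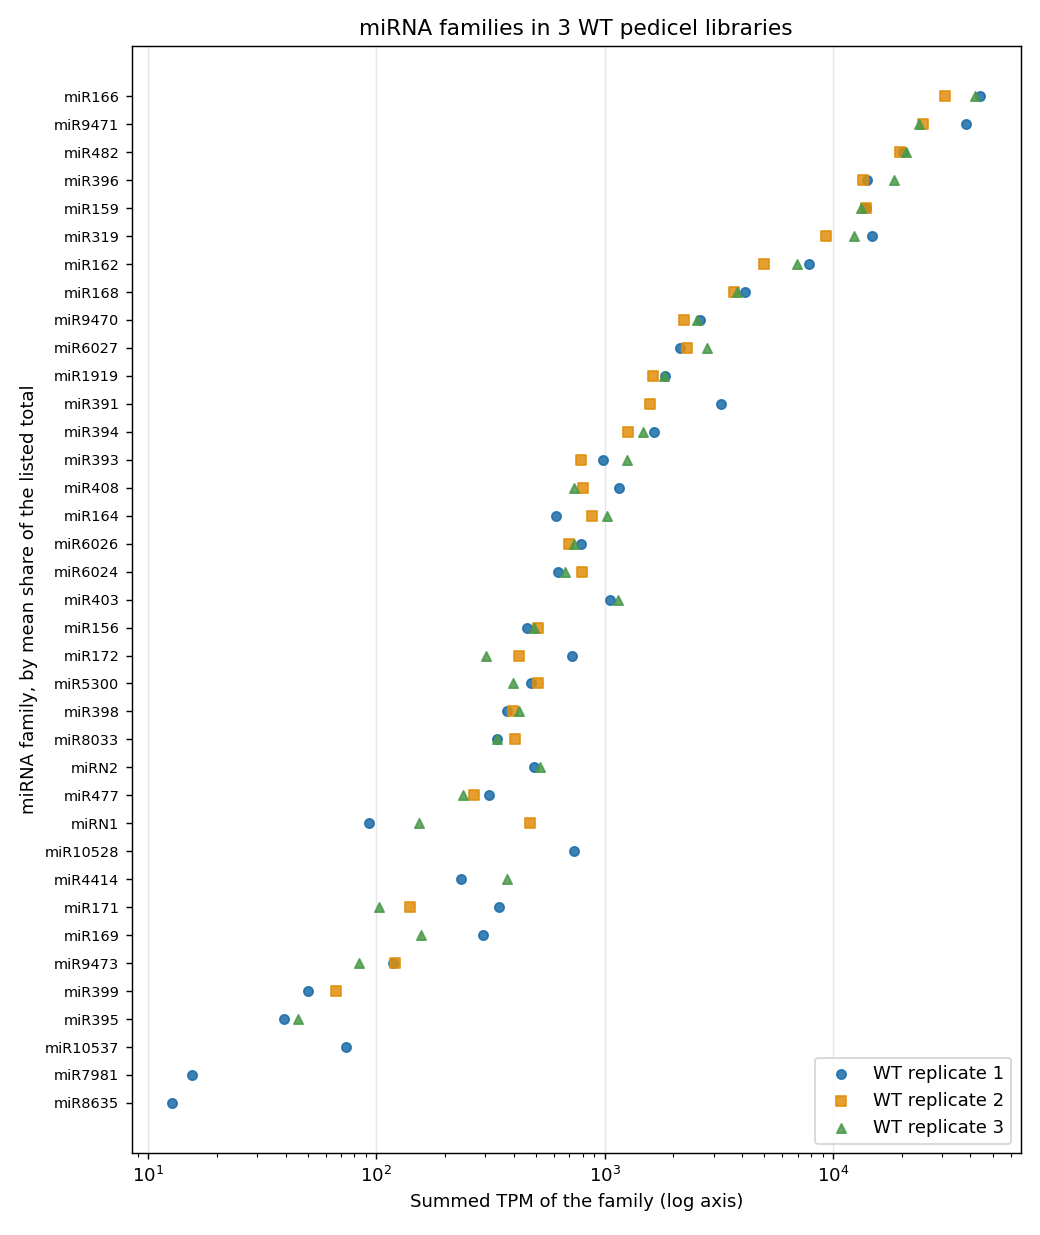
Summed TPM (x axis, log scale) of the 37 miRNA families (y axis, ordered by mean share of the listed total), with 1 point for each WT library that lists the family. All points of the first 3 families lie at or above 19676 TPM, and 11 families have fewer than 3 points.

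Families that act on the small RNA machinery followed. miR162, which acts on DICER-LIKE1, had 7877, 5009 and 6987 TPM and ranked seventh in all 3 libraries. miR168, a family that acts on ARGONAUTE1, had 4117, 3671 and 3778 TPM and ranked eighth in all 3. The 3p arm held 67.7% ± 5.1 (SD, n = 3) of miR168, and which arm acts on ARGONAUTE1 was not examined. In each pair of neighbours from miR319 down to miR9470, the lowest library of the higher family stood above the highest library of the lower family. miR403, which acts on ARGONAUTE2, was listed in WT replicates 1 and 3, at 1053 and 1145 TPM, and in WT replicate 2 no row carried this name. The 3 families took 7.03% ± 0.62 (SD, n = 3) of the listed total, with miR403 counted as 0 in WT replicate 2. No row analysed here was named miR390, which acts on the *TAS3* precursors of trans-acting siRNAs.

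Below rank 8, the order was loose. miR9470, a tomato family of 1 locus, had 2621, 2225 and 2529 TPM, and miR6027, known from Solanaceae, had 2134, 2291 and 2807 TPM. Their ranges overlapped, and miR6027 was the higher one in WT replicates 2 and 3. miR1919, also known from Solanaceae, had 1839, 1632 and 1813 TPM over 4 loci and stood below both families in every library. Over the 20 pairs of families that follow each other in rank and were listed in all 3 libraries, the order was the same in all 3 libraries for 8 pairs, and 7 pairs also did not overlap in TPM. On shares, 7 pairs did not overlap either, with miR166 above miR9471 in place of miR482 above miR396. On either scale, 1 of the 7 pairs lay below rank 11, that of miR394 (1645, 1268 and 1476 TPM) above miR393 (982, 786 and 1252 TPM).

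The listed families were also grouped by what they are known to act on. Of 14 names in the list of transcription factor regulators, 9 were listed, and they took 52.0% ± 2.9 (SD, n = 3) of the listed total. Most of this share came from miR166, miR396, miR159 and miR319, described above. miR164, which acts on NAC transcription factors such as GOBLET of tomato, had 613, 876 and 1024 TPM. miR156, which acts on SPL transcription factors and keeps shoots in the juvenile phase, had 458, 512 and 491 TPM. miR172, which acts on AP2-like transcription factors and rises as miR156 falls during shoot ageing, had 716, 422 and 301 TPM. miR171, which acts on HAIRY MERISTEM genes, had 344, 141 and 103 TPM. miR169, which acts on NF-YA subunits, had 293 and 157 TPM in WT replicates 1 and 3 and no row of this name in WT replicate 2. The remaining names on that list were miR157, miR160, miR165, miR167 and miR170, and no row analysed here carried them. As sums over both arms, families acting on developmental phase and HAIRY MERISTEM genes were thus far below those acting on HD-ZIP III, GRF, MYB and TCP genes. These sums include star strands, and the shares of the role lists were not split by arm. The 3p arm averaged 61.3% of miR166 and 46.4% of miR396. In miR171 it held 54.1%, 11.8% and 13.2% in WT replicates 1, 2 and 3.

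The list of NLR regulators and families known from Solanaceae took 16.8% ± 2.0 (SD, n = 3). Of its 17 names, 6 were listed under the same name, all of them in all 3 libraries, and miR482 held the largest part. miR6026 had 789, 694 and 730 TPM. miR6024 had 624, 797 and 668 TPM. miR5300 had 475, 508 and 398 TPM. Each of the 3 came from 1 locus, and miR5300 was the lowest of them in each library. RefSeq gives miR4376 as an older name of miR391 and miR5301 as one of miR482e, and both older names are among the 17. miR482e is part of the miR482 sum, whereas miR391 is not in the share above. With it, a count added after seeing the data, the list took 17.8% ± 1.8 (SD, n = 3). As miR4376, miR391 is known in tomato to act on a calcium-transporting ATPase. It had 3237 and 1583 TPM in WT replicates 1 and 2, resting on 1015 and 408 reads, and no row in WT replicate 3 carried the name.

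F-box regulators took 1.56% ± 0.14 (SD, n = 3). miR394, which acts on the F-box gene *LCR* in Arabidopsis, had the same share in each library, 0.92%, 0.92% and 0.93%. miR393, a family that acts on auxin receptors of the TIR1/AFB type, was highest in WT replicate 3. Its 3p arm, listed as mature, held 95.7% ± 1.3 (SD, n = 3) of the sum, and which arm acts on these receptors was not examined. The families of nutrient and copper supply took 0.86% ± 0.093 (SD, n = 3). miR408, which acts on copper proteins, had 1149, 807 and 731 TPM, and miR398, which acts on copper/zinc superoxide dismutases, had 372, 397 and 422 TPM. miR399, which acts on *PHO2* under phosphate shortage, and miR395, which acts on sulphate assimilation genes, were at most 66.7 and 45.3 TPM where listed. By the listed names, a further 13 families, miR391 among them, fell in none of these lists and took 21.7% ± 4.2 (SD, n = 3), most of it from miR9471.

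Families with many loci were found at both ends of the ranking. Of the 37 families, 20 had 1 locus in each library that listed them and 17 had 2 or more loci in some library. Across the 37 families, the Spearman correlation of the highest number of loci with the mean share was 0.26, given as a description over families measured in the same libraries. Among the 10 highest families, 3 had a single locus, namely miR159, miR9470 and miR6027. Conversely, miR395 had 8 loci in WT replicate 1 and 9 in WT replicate 3 but summed to 39.2 and 45.3 TPM, the worth of about 12.3 and 12.7 reads. miR399 had 5 and 4 loci in WT replicates 1 and 2 and summed to 50.2 and 66.7 TPM. miR8635 had 3 loci in WT replicate 1 alone, which held the same value and summed to 12.8 TPM. In these low families at most 17.2 reads of a library were shared by all loci together, so that the loci were not separately measured.

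Compared with RefSeq, which annotates 101 miRNA genes of tomato in 64 families, 30 of the 37 listed families had an annotated gene. In WT replicate 1, the list gave more loci than annotated genes for 9 of these families, as many for 18 and fewer for 3. The largest excess was in miR166 and miR395, and the others with 3 or more loci were miR396 (4 against 2), miR319 (5 against 3), miR399 (5 against 1), miR172 (6 against 4) and miR1919 (4 against 3). The 3 families with fewer loci than genes were miR7981 (1 against 6), miR169 (1 against 5) and miR171 (3 against 6). A further 34 RefSeq families had no row of that name in the WT lists, miR160, miR167 and miR390 among them.

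Families with several loci ranged from even to carried by 1 locus. The share of the highest locus averaged over 90% in miR319 and in miR408, where it was 92.8% and 89.9% in the 2 libraries that list 2 miR408 loci. In contrast, the loci of miR162 split the family evenly, at 50% ± 0.022 (SD, n = 3), since both mature rows had the same value in every library. miR394 (52.0% ± 0.28), miR168 (52.3% ± 1.4) and miR164 (56.3% ± 1.8; SD, n = 3 for each) were also close to even. Between 31 and 51 rows of a library had the same value as another row of their family. How much each of these loci produced cannot be read from such rows. Counting identical rows once left miR166 first, at 22.4%, but moved miR159 and miR319 above miR396, which fell to 7.55%, and miR162 below miR168.

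**Figure D3:**
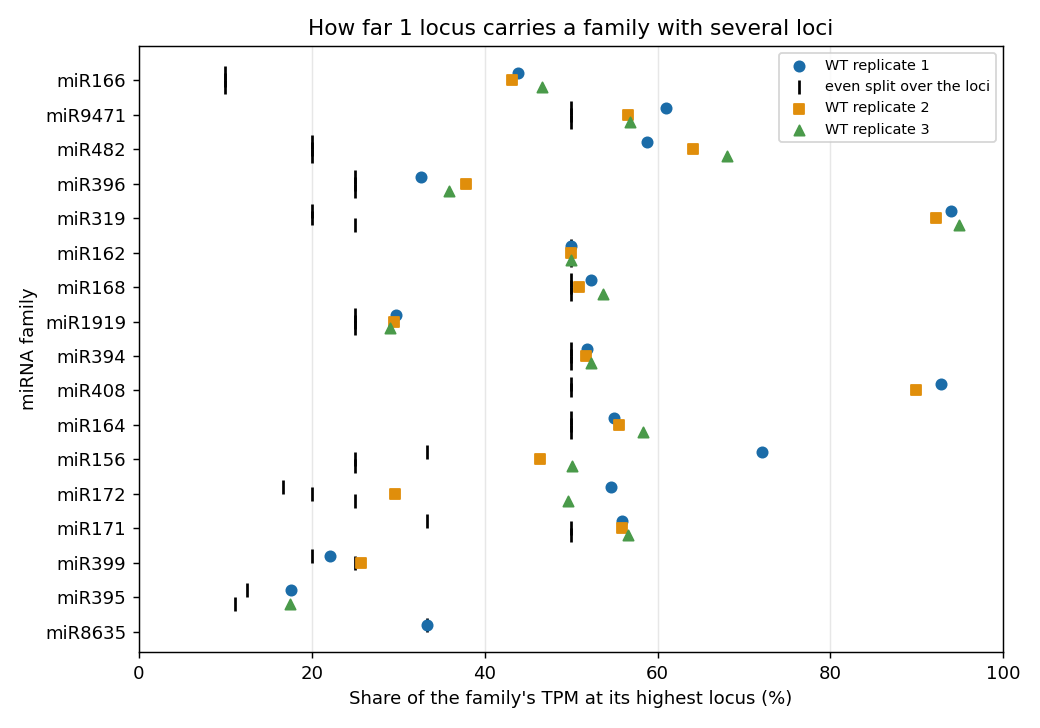
Share of a family's TPM held by its highest locus (%, x axis) for the 17 families with 2 or more loci (y axis), with 1 point for each WT library and a black tick at the share an even split over the listed loci would give. miR319 lies above 92% in all 3 libraries, and miR162 lies on its tick at 50%.

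The arms of the hairpin were unequal over the list as a whole. The 3p arm took 77.6% ± 1.4 (SD, n = 3) of the listed total, and rows listed as mature took 82.6% ± 1.2 (SD, n = 3). Among the 20 highest families, 7 had over 90% on the 3p arm, among them miR159, miR162, miR319, miR482 and miR9471. Another 3 had under 20% on it, miR394 (1.01% ± 0.19, SD, n = 3), miR164 (13.0% ± 3.5, SD, n = 3) and miR391 (12.3% and 16.7% in 2 libraries). In 7 families, the 3p arm took between 40% and 70%, among them miR396 with 46.4% ± 7.4 (SD, n = 3) and miR156 with 50.4% ± 12.2 (SD, n = 3). The arm called mature was not fixed for a name either. Of 58 locus names present in all 3 libraries, 8 had the 3p arm as mature in some libraries and the 5p arm in others. Among them were miR168a, miR168b, miR396a and miR396d. The name miRN1, which stands for different miRNAs in different libraries, is also among the 8. Since a letter may name different loci, this count describes names and need not show a change of arm at a locus. The star strand was the higher one at 4, 7 and 9 loci in WT replicates 1, 2 and 3.

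A total of 7 rows were needed to reach 50% of the listed total in each library. The 6 highest rows were the same in all 3 libraries and took 48.9%, 47.7% and 46.0%. They were miR9471a-3p, miR159-3p, miR482b-3p, miR9471b-3p, miR319a-3p and miR166b-5p. Of these, miR166b-5p is a star strand. Rows of Known loci took 81.5%, 91.2% and 91.0% of the total and Probable loci 18.2%, 8.42% and 8.57%. The higher Probable share of WT replicate 1 goes with miR482b, which is Probable there, with 11957 TPM, and Known in the other libraries. All loci with a star strand listed at 0 were Probable, 21 of 24, 7 of 9 and 17 of 17 of them.

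The ranking of families was alike across libraries. Across the 28 families shared by WT replicates 1 and 2, the Spearman correlation of family TPM was 0.96, across the 31 shared by replicates 1 and 3 it was 0.97, and across the 26 shared by replicates 2 and 3 it was 0.98. These are descriptions across families, which are not independent replicates and span a wide range of levels.

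The spread of single families was larger. Over the 26 families listed in all 3 libraries, which all had a mean of at least 100 TPM, the median CV was 13.9%, and 14 of them had a CV under 15%. Counting of reads alone would give a median CV of 6.21%, computed from the estimated reads behind each family. The observed CV was above its counting value for 23 of the 26 families. The median ratio of observed to counting CV was 2.48. miR166, with between 8002 and 13821 reads per library, had a CV of 17.8% against 0.96% from counting, and miR9471 27.9% against 1.13%. The lowest CV values in TPM were those of miR159 (2.74%), miR482 (3.11%) and miR156 (5.63%), the last of which was below its counting value of 8.53%. This order held only in TPM. On shares of the listed total, their CV values were 14.4%, 11.6% and 18.9%, and the lowest were those of miR394 (0.55%) and miR9470 (5.40%). The CV of miR319 was 22.8% in TPM and 10.1% on shares, so that miR159 was the steadier of these families in TPM and miR319 on shares.

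**Figure D4:**
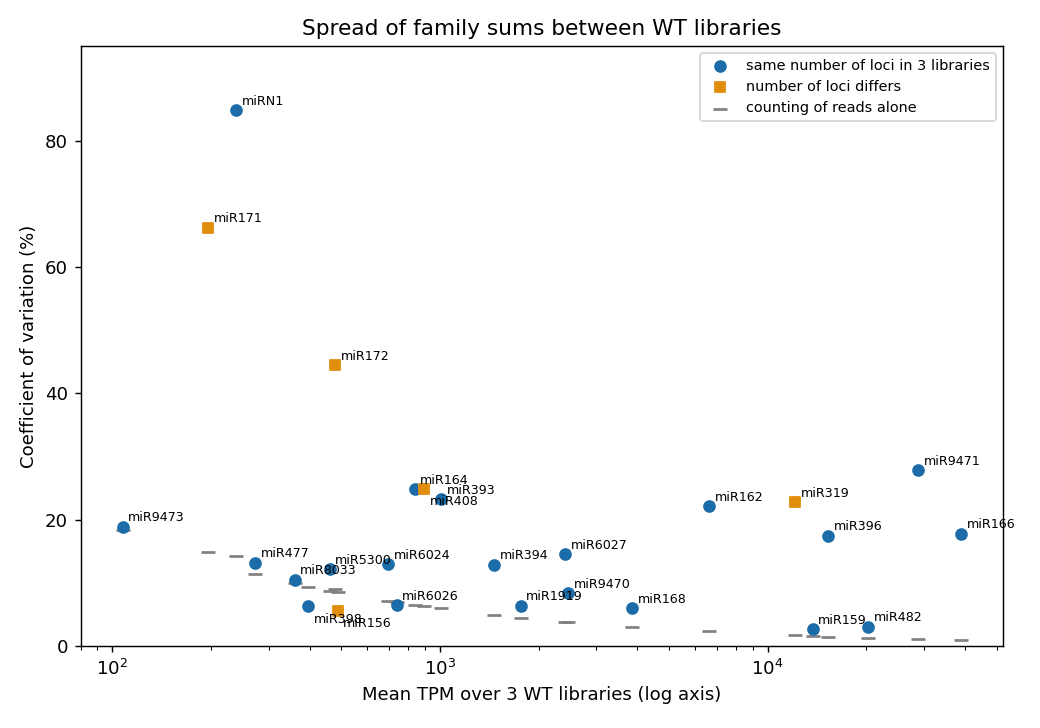
Coefficient of variation of family TPM over the 3 WT libraries (%, y axis) against mean TPM (x axis, log scale) for the 26 families listed in all 3 libraries. Circles had the same number of loci in each library, squares did not, and grey bars show the value that counting of reads alone would give. miRN1, miR171 and miR172 lie above 40%, and miR159 and miR482 lie lowest, at 2.74% and 3.11%, an order that does not hold on shares of the listed total.

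The 3 families with a CV over 40% were miRN1 (84.8%), miR171 (66.2%) and miR172 (44.5%). On shares, their CV values were 95.7%, 54.6% and 35.3%. The name miRN1 stands for a 3p miRNA in WT replicates 1 and 3 and for a 5p miRNA in WT replicate 2. The 5p one, joined by its place in the lists after the data were seen, is miRN2 of WT replicates 1 and 3, and its CV was 5.13%. In miR171, WT replicate 1 listed 1 more locus, miR171c, with 192 TPM. Without it, the family had 152, 141 and 103 TPM and a CV of 19.5%, a value computed after the data were seen. In miR172, the number of loci was 6, 5 and 4, and miR172b had 391, 125 and 149 TPM. The 5 families whose number of loci differed between libraries, which were miR319, miR408, miR156, miR172 and miR171, had a median CV of 24.9%, between 5.63% and 66.2%. Where the number of loci did not differ, in 21 families, the median was 12.9%, and the highest of them apart from miRN1 was miR9471. On shares, the medians were 18.9% and 16.6%. Whether listing or abundance set the spread of the 5 families was not tested.

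Of the 11 family names that were not in all 3 libraries, 6 had over 100 TPM in each library that listed them. One of these 6 is miRN2, whose place in WT replicate 2 is held by the 5p miRN1 described above, and without it there were 5 of 10. The highest of the 4 families listed in 1 library was miR10528, with 734 TPM and 230 reads in WT replicate 1. All 11 were in WT replicate 1, 2 were in WT replicate 2 and 5 in WT replicate 3. This is the same order as the estimated depth of the libraries, whose part in this was not tested. No TPM value is given for a library in which a family had no row, since reads of a locus that the pipeline did not list do not appear in its list. In shares of the listed total, such a family counted as 0.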

How the data were processed

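Small RNA libraries of WT pedicels at 10 DAA were analysed, with groups and replicate numbers taken from the labels. The authors ran sRNAminer (One Step pipeline, default settings) on every library by itself, and the file headers name trimming, collapsing of reads, removal of rRNA and organelle reads and alignment with bowtie. Versions and genome build are not given in the sources used here. The values the authors deposited are RPM, called TPM in the paper, 1 per miRNA arm. The lists analysed here hold no sequences, so none is shown, and 32.3% to 38.0% of values above 0 were whole reads within 0.0001 of a read, so no count model was used.

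The worth of 1 read was the largest step of which at least 75% of single-locus family values up to their median were multiples. In the WT libraries, 78.9% to 84.6% of these values were multiples. The step was tried on simulated lists in which single-locus families held whole reads only. That trial cannot show how well the step does where reads are shared in other ways. Family sums, shares, SD and CV were computed in Python 3.11.15 with pandas 2.3.3 and numpy 2.4.6, and plotted with matplotlib 3.10.9. No test was run, since 1 group has no contrast. A family absent from a list counted as 0 in shares. Families named are the 20 highest by mean share, those with 3 or more loci, and the 3 with the highest and lowest CV; any other family was singled out with its values known, except members of the role lists. Members and lists were chosen with earlier results of these data known. Alternatives were mature rows, Known rows, identical rows once, the highest row of a family, rows of at least 10 TPM, other means, pseudocounts of 1, 0.1 and 10 on the log2 scale, and leaving out each library.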

Additional observations from a re-analysis of the deposited data

How the results depend on the processing

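No paired analysis was possible because the values come from 1 group and from no test. The share of the first family became 21.5% with mature rows only (miR9471), 26.6% with Known rows only, 22.4% with identical rows counted once and 19.5% with the highest row of each family (miR9471). The first 3 families took 59.3% with Known rows and 50.4% with highest rows. The first 10 families took 92.6%, 89.7% and, with families of all 3 libraries only, 93.2%. The effective number of families was 9.17 with Known rows, 11.2 with highest rows, 10.7 from summed TPM, 11.1 with means over the libraries that list a family and 9.74 with families of all 3 libraries only. With Known rows, miR319 left the first 10 families and miR1919 entered. The median CV was 17.1% on shares of the listed total, and the median SD of log2(TPM + pseudocount) was 0.20 with pseudocounts of 1, 0.1 and 10. Leaving out each library gave first-family shares of 23.6% to 25.4%, first-3 shares of 54.6% to 56.1%, first-10 shares of 91.0% to 91.8%, 33 to 37 families and a median CV of 10.7% to 12.5%. Without WT replicate 3, miR391 replaced miR6027 among the first 10 and miR159 stood above miR396. Means over listing libraries, families of all 3 libraries only and the joining of miRN loci by place were chosen after seeing the data. Depth limits low families, since 1 read was worth 3.19 to 3.88 TPM, and counting error does not cover how reads were shared among loci.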

Other observations

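Names of the miRN loci, which the pipeline found without a known family name and numbers within each list, need not match between libraries. In WT replicate 2, miRN1 is a 5p miRNA listed between miR166i and miR166j, at 469 TPM. In WT replicates 1 and 3, that place is held by a 5p miRNA named miRN2, at 491 and 520 TPM. Joined by place and arm, a step chosen after seeing the data, this locus had a CV of 5.13% over 3 libraries, against 84.8% for the name miRN1. The miRN1 of WT replicates 1 and 3, a 3p miRNA listed directly before miR9470, had 92.5 and 154 TPM.

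miR10537, listed in WT replicate 1 with 73.4 TPM, belongs to a gene that directly neighbours that of miR9470 in the RefSeq annotation. Among the 26 families of all 3 libraries, 13 were highest in WT replicate 1, 7 in WT replicate 2 and 6 in WT replicate 3, and 11 were lowest in WT replicate 2, the library with the lowest listed total.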
